A study of Mus musculus with 6 samples.

Results

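The keratin genes and the genes of keratin-associated proteins were examined in Hepa1-6 tumors from control and Sora-treated mice. Members were the genes of the deposited expression table whose symbol is Krt or Krtap followed by a digit, and 96 of 26167 genes met this rule. Hepa1-6 cells are a hepatoma line of the mouse, and the tumors grew under the skin of female C57BL/6J mice that were 6 to 8 weeks old when obtained. The Sora-treated mice received sorafenib (Sora), an inhibitor of several kinases, ip at 10 mg/kg on day 9, day 11, day 13, and day 15 after the cells were injected. No sorafenib was given to the control mice, and an injected vehicle is not named for them in the sources used here. RNA-seq libraries came from controls 1, 3, and 4 and Sora-treated tumors 2, 3, and 4, with 1 library per tumor and 31073830 to 36205814 counted reads in each. The labels call the material tumor tissue and do not say which mouse each tumor came from or whether overlying skin was removed, so p values measure the spread between these 6 samples. The cell line is a single line grown in a host with its own skin, hair follicles, and stroma, and in bulk RNA fewer cells of a type and less RNA per cell cannot be told apart.

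Keratins are the intermediate filament proteins of epithelial cells, and each filament is built from pairs of 1 type I and 1 type II protein. Krt8 and Krt18 form the pair of simple epithelia such as hepatocytes, and Krt7 and Krt19 are added in bile duct epithelium. In the epidermis, basal cells make Krt5 and Krt14, cells that leave the basal layer make Krt1 and Krt10, and Krt6a, Krt6b, Krt16, and Krt17 are induced in keratinocytes by injury and inflammation. Within the hair follicle, the inner root sheath and the hair shaft have keratins of their own, and keratin-associated proteins crosslink the filaments of the shaft. By these roles the 96 members were divided into 4 simple-epithelial, 13 epidermal, 8 root sheath, and 15 hair shaft keratin genes, 44 genes of keratin-associated proteins, and 12 other keratin genes.

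Levels are given as FPKM, the reads on a gene scaled by its length and by the total reads of the library. Genes can then be compared with each other as far as the length used is right. The simple-epithelial keratins made up 49.8%, 79.7%, and 72.5% of the summed FPKM of all members in controls 1, 3, and 4, and 54.7%, 67.4%, and 67.6% in tumors 2, 3, and 4 of the Sora-treated mice. The epidermal keratins made up 45.2%, 14.5%, and 17.4% in the control tumors and 39.9%, 26.9%, and 26.3% in the Sora-treated tumors. The tumors thus differed more within each group than the groups did from each other, and control tumor 1 and Sora-treated tumor 2 had the largest epidermal part. In control tumor 4, genes of keratin-associated proteins made up 2.54% of the summed FPKM and root sheath keratins 0.979%, against at most 0.335% and 0.109% in any other tumor.

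To test differences between the groups, edgeR's quasi-likelihood test was run over the 16513 genes that had at least 10 reads in at least 3 tumors, with Benjamini-Hochberg adjustment over all of them. All 4 simple-epithelial keratins passed this filter, as did 12 of 13 epidermal, 1 of 8 root sheath, 3 of 15 hair shaft, and 6 of 12 other keratin genes and 2 of 44 genes of keratin-associated proteins. Of these 28 members, 2 were higher in Sora-treated tumors at an adjusted p under 0.05 (Krtap4-16 and Krt76) and 0 were lower, whereas 1.94% of all genes tested were called higher and 1.34% lower. At an unadjusted p under 0.05 the edgeR test gave 8 members higher and 1 lower (8.53% and 8.69% of all genes). DESeq2, which gave an adjusted p for 30 members, called 3 of them higher and 0 lower (4.0% and 3.71% of all genes with an adjusted p), and limma voom called 2 higher and 0 lower (1.79% and 1.4%). The counts of Sora-treated tumor 4 in this test were recovered from its FPKM, and without this tumor edgeR called 0 members (5 higher and 0 lower at an unadjusted p under 0.05, and 0.0245% of all genes called higher), as it did without control tumor 4 (3 and 0, and 0.717%). The median log2 fold change (Sora-treated against control) of the 28 members was 0.42, with 25 values above 0, and that of all genes tested was -0.00037. The FPKM of the groups did not overlap, with the Sora-treated tumors higher, for 2 of the 28 members and for 10.6% of all genes tested. The plot of fold changes for the 28 members gives each value with its standard error (SE).

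**Figure D1:**
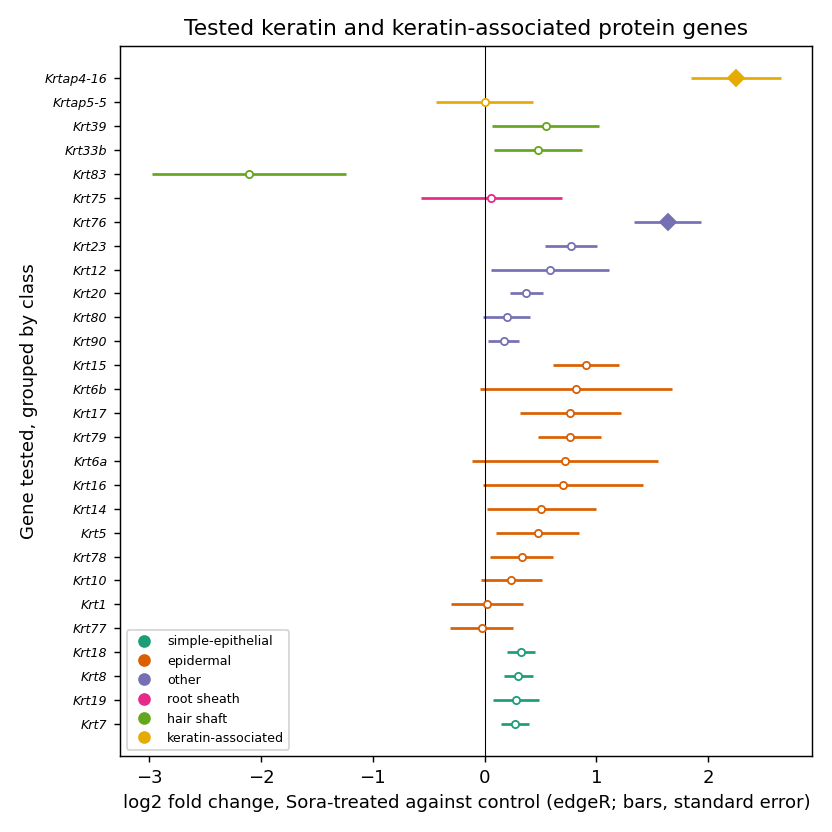
Log2 fold change (x axis, Sora-treated against control tumors) of the 28 tested members (y axis, colored by class), with points for the edgeR estimate and bars for its standard error. Filled diamonds mark Krtap4-16 (2.25) and Krt76 (1.64), the 2 genes with an adjusted p under 0.05, and Krt83 at -2.11 has the lowest value.

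Krt18 and Krt8 were the most abundant members, and all 4 simple-epithelial keratins varied little from tumor to tumor. Krt18, the type I partner of the pair, was at 557, 654, and 571 FPKM in controls 1, 3, and 4 and at 727, 634, and 853 FPKM in Sora-treated tumors 2, 3, and 4. Krt8, its type II partner, was at 345, 376, and 305 FPKM in the control tumors and 416, 354, and 483 FPKM in the Sora-treated tumors. For both genes Sora-treated tumor 3 lay within the range of the control tumors, and the other 2 Sora-treated tumors lay above it. The Krt18 mean was 594 ± 52.0 FPKM in control and 738 ± 109.8 FPKM in Sora-treated tumors (SD, n = 3), a log2 fold change of 0.33 (SE 0.13, edgeR adjusted p = 0.21). The Krt8 mean was 342 ± 35.9 and 418 ± 64.9 FPKM (SD, n = 3), a log2 fold change of 0.30 (SE 0.13, edgeR adjusted p = 0.26). The ratio of Krt18 to Krt8 was nearly constant, from 1.62 in control tumor 1 to 1.87 in control tumor 4, and its log2 value differed by 0.02 between the groups (two-sided exact permutation p = 0.7, with 0.1 the smallest p that 3 tumors against 3 allow).

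Krt7 and Krt19 stood much lower than this pair. Krt7, a type II keratin of ducts, was at 33.3, 36.2, and 31.4 FPKM in the control and 40.4, 33.2, and 46.8 FPKM in the Sora-treated tumors (log2 fold change 0.27, SE 0.13, edgeR adjusted p = 0.31). Krt19, a type I keratin of ducts, was at 3.79, 3.47, and 2.44 FPKM in the control and 3.98, 3.57, and 4.12 FPKM in the Sora-treated tumors (log2 fold change 0.28, SE 0.21, edgeR adjusted p = 0.55). The groups overlapped for all 4 genes, and Krt18 exceeded Krt19 by 147-fold to 234-fold in every tumor. All 4 were highest in Sora-treated tumor 4, and 0 of 4 passed the adjusted threshold by edgeR or DESeq2, with 2 of 4 higher at an unadjusted p under 0.05 by edgeR and 3 of 4 by DESeq2 (5.61% of all genes by DESeq2). The ratio of the 2 types over the whole class was 1.48 to 1.71 (type I over type II, summed FPKM).

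**Figure D2:**
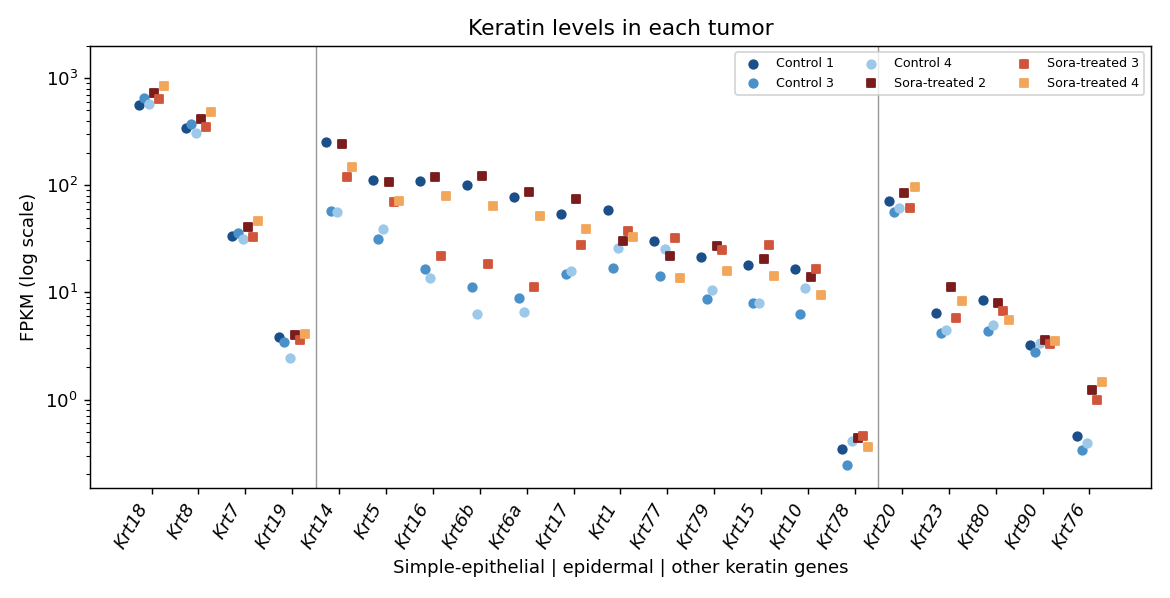
FPKM on a log scale (y axis) of the simple-epithelial keratins, the epidermal keratins other than Krt2, and 5 of the other keratin genes (x axis), with blue circles for the 3 control tumors and red to orange squares for the 3 Sora-treated tumors. The 4 simple-epithelial keratins spread by 1.49-fold to 1.69-fold over the 6 tumors, and the epidermal keratins Krt6a and Krt6b by 13.2-fold and 19.4-fold.

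The tumors carried the RNA of hepatoma cells. Alb (albumin) was at 1321 to 1680 FPKM in control and 974 to 1198 FPKM in Sora-treated tumors, and Afp (alpha-fetoprotein) was at 323 to 483 FPKM over the 6 tumors. Of the 12 hepatoma markers, Ahsg and Serpina1a were near 0, at no more than 0.168 FPKM in any tumor. Among the 6 markers of duct epithelium, Epcam, a surface adhesion protein of simple epithelia, was at 15.7 to 20.7 FPKM, and Cldn7, a tight junction protein, did not exceed 0.022 FPKM. Sox9, a transcription factor of duct cells, was at 18.4, 18.0, and 21.1 FPKM in control and 29.8, 26.2, and 38.3 FPKM in Sora-treated tumors (log2 fold change 0.73, edgeR adjusted p = 0.021). Of the 10 hepatoma markers tested, edgeR called Alb (log2 fold change -0.55, adjusted p = 0.041) and Ttr (transthyretin, -2.15, 0.0055) lower and Hnf4a, a transcription factor of hepatocytes (0.80, 0.013), and Apoa1, an apolipoprotein (1.03, 0.047), higher, with a median of 0.02 over the list. By DESeq2 and limma voom Apoa1 was not called (adjusted p = 0.063 and 0.081). The hepatoma markers thus moved in both directions, with 2 of 10 called higher and 2 lower by edgeR (1.94% and 1.34% of all genes). Which cells of the tumor made Krt8 and Krt18 was not measured.

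The epidermal keratins varied widely between tumors of the same group, and the groups overlapped. Krt14, the type I keratin of basal keratinocytes, was at 253, 57.3, and 55.9 FPKM in controls 1, 3, and 4 and at 242, 120.3, and 149 FPKM in Sora-treated tumors 2, 3, and 4. Krt5, its type II partner, was at 112, 31.7, and 38.7 FPKM in the control and 108, 70.2, and 71.6 FPKM in the Sora-treated tumors. Krt15, a further basal keratin that also marks stem cells of the hair follicle, was at 18.0, 7.93, and 7.90 FPKM in the control and 20.6, 27.7, and 14.3 FPKM in the Sora-treated tumors. In each of these basal keratins control tumor 1 lay within the range of the Sora-treated tumors or above it, and control tumors 3 and 4 lay below all of them. The log2 fold changes were 0.51 for Krt14 (SE 0.48, edgeR adjusted p = 0.66), 0.48 for Krt5 (SE 0.37, adjusted p = 0.57), and 0.90 for Krt15 (SE 0.29, adjusted p = 0.13).

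Among the epidermal keratins tested, those of activated keratinocytes spread most, by 4.97-fold to 19.4-fold over the 6 tumors. Krt16, a type I keratin, was at 109, 16.7, and 13.5 FPKM in the control and 119, 22.1, and 78.7 FPKM in the Sora-treated tumors. Krt6a, a type II partner of Krt16, was at 78.1, 8.87, and 6.62 FPKM in the control and 87.4, 11.2, and 51.2 FPKM in the Sora-treated tumors. Krt6b was at 101, 11.3, and 6.32 FPKM in the control and 123, 18.4, and 63.6 FPKM in the Sora-treated tumors. Krt6a and Krt6b are close copies, so the division of reads between them is uncertain. Krt17, a type I keratin of activated and follicular keratinocytes, was at 53.6, 14.9, and 15.8 FPKM in the control and 74.0, 27.6, and 39.3 FPKM in the Sora-treated tumors. High levels of these 4 genes were found in control tumor 1, Sora-treated tumor 2, and Sora-treated tumor 4, and low levels in the other 3 tumors, so both groups held high and low tumors. The log2 fold changes were 0.70 to 0.82, with SE of 0.45 to 0.86 and edgeR adjusted p values of 0.43 to 0.73. The ratio of Krt16 to Krt14 was 0.43, 0.29, and 0.24 in the control and 0.49, 0.18, and 0.53 in the Sora-treated tumors, and that of Krt6a to Krt5 was 0.69, 0.28, and 0.17 in the control and 0.81, 0.16, and 0.72 in the Sora-treated tumors. Relative to the basal keratins, the activated keratins were thus high in the same 3 tumors as by level.

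The suprabasal keratins varied less and in another order. Krt1, the type II keratin of differentiating keratinocytes, was at 58.6, 16.9, and 25.8 FPKM in the control and 30.5, 37.2, and 33.1 FPKM in the Sora-treated tumors. Krt10, its type I partner, was at 16.7, 6.24, and 11.05 FPKM in the control and 13.8, 16.4, and 9.41 FPKM in the Sora-treated tumors. Krt10 had more reads than Krt1 in every tumor (5503, 2198, and 4222 against 4485, 1382, and 2287 in the control). Its lower FPKM thus came from the greater gene length used in the scaling. The level of Krt10 against other genes depends on that length, and the order of the tumors for Krt10 does not. Krt77, a suprabasal type II keratin, was at 29.9, 14.2, and 25.2 FPKM in the control and 21.6, 32.4, and 13.5 FPKM in the Sora-treated tumors. The highest tumor was control tumor 1 for Krt1 and Krt10 and Sora-treated tumor 3 for Krt77, and the median log2 fold change of the 4 suprabasal genes tested was 0.13. The ratio of Krt10 to Krt14 ran opposite to the activated keratins, with 0.066, 0.109, and 0.198 in the control and 0.057, 0.137, and 0.063 in the Sora-treated tumors. Krt2, a late suprabasal keratin, had too few reads to be tested. Krt79, a keratin of the upper hair follicle and the sebaceous duct, was at 21.5, 8.66, and 10.4 FPKM in the control and 27.0, 25.1, and 15.8 FPKM in the Sora-treated tumors (log2 fold change 0.76, SE 0.28, edgeR adjusted p = 0.19). In the order of mean levels Krt14 stood first among the epidermal keratins and Krt78 last among those tested, and the spread over tumors (at least 2.39-fold for the 11 genes above Krt78) was larger than the step between any neighbors in that order other than Krt10 and Krt78.

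Of the 11 epidermal keratins with a mean of at least 1 FPKM, 9 were highest in control tumor 1 or Sora-treated tumor 2, and 10 were lowest in control tumor 3 or 4. Epidermal genes that are not keratins were highest and lowest in much the same tumors. Of 24 such genes, 22 were highest in control tumor 1 or Sora-treated tumor 2 and 24 were lowest in control tumor 3 or 4. Their summed FPKM was 224 to 552 in the control and 378 to 544 in the Sora-treated tumors, and genes of the cornified layer such as Lor (11.8 to 26.4 FPKM) and of keratinocytes such as Krtdap (60.7 to 139 FPKM) were present in every tumor. By edgeR 0 of the 24 were called (2 higher at an unadjusted p under 0.05), as by DESeq2 (4 higher) and limma voom (5 higher), and their median log2 fold change was 0.40. The highest and lowest tumors of most epidermal keratins were thus those of other genes of the epidermis. The order between these extremes was not shared by all. The 4 activated keratins summed to 79.3 and 233 FPKM in Sora-treated tumors 3 and 4, whereas the 24 genes summed to 388 and 378. Krt77 was at 32.4 and 13.5 FPKM in these 2 tumors, and the amount of skin in each piece of tissue was not measured. Krt14 reached 0.45 and 0.33 of the Krt18 level in control tumor 1 and Sora-treated tumor 2, and 0.088 to 0.190 in the other 4 tumors.

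**Figure D3:**
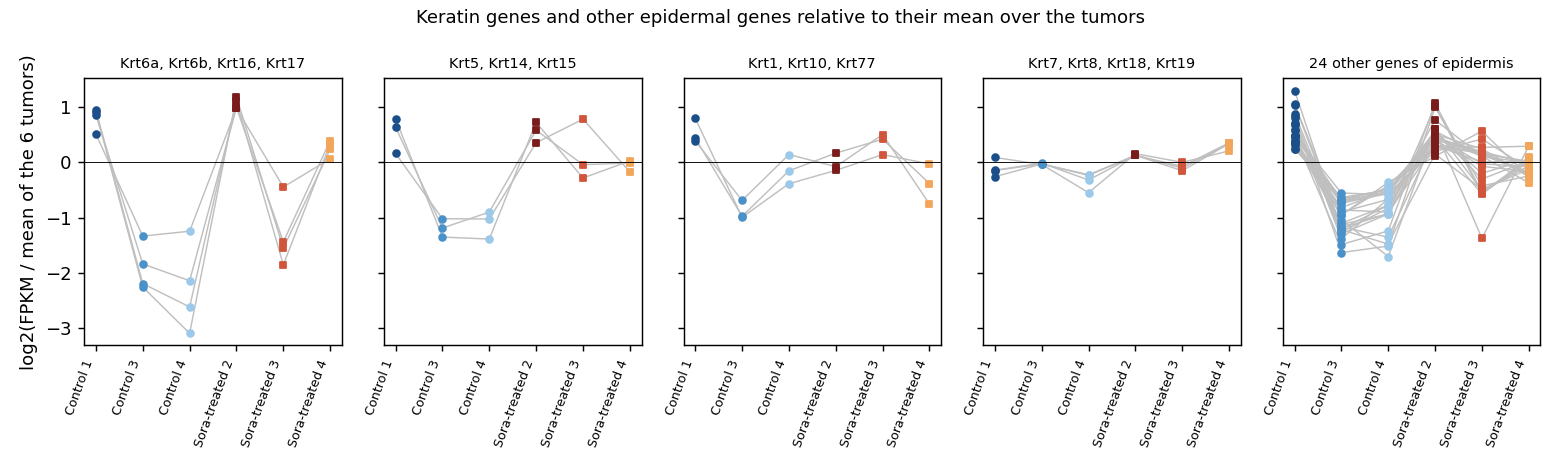
Log2 of FPKM relative to the mean of the 6 tumors (y axis) for keratin genes by class and for 24 other genes of epidermis, by tumor (x axis), with a gray line for each gene. The activated and basal keratins and the other epidermal genes are high in control tumor 1 and Sora-treated tumor 2 and low in control tumors 3 and 4, and the simple-epithelial keratins stay near 0.

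None of the 12 epidermal keratins tested passed the adjusted threshold by edgeR or DESeq2, with 2 of them higher at an unadjusted p under 0.05 by edgeR (8.53% of all genes) and 1 by DESeq2 (5.61%). This count depended on the filter and on control tumor 1. With no filter on low counts, edgeR called Krt15 (adjusted p = 0.0050) and Krt79 (adjusted p = 0.014) higher, which are 2 of 13 epidermal keratins against 2.26% of all genes. Without control tumor 1, edgeR called 5 of 28 members higher, against 0.705% of all genes tested in that fit. These were Krt76 and the epidermal keratins Krt14 (log2 fold change 1.58), Krt15 (1.39), Krt5 (1.24), and Krt79 (1.23), each of the 4 with an adjusted p of 0.028. The log2 ratio of the mean summed FPKM of the epidermal keratins was 0.52 with all tumors and 1.55 without control tumor 1.

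The hair genes showed a different pattern, and control tumor 4 held 58.1% of their reads over the 6 tumors (79.0% for root sheath keratins, 44.6% for hair shaft keratins, and 52.3% for keratin-associated proteins). To show how the promoters of such genes differ from that of a simple-epithelial keratin, the 250 bases before the RefSeq start of 6 members are given, read 5′ to 3′ along the gene from RefSeq's table for GRCm38.p6. Krt18 stands for the simple-epithelial keratins, Krt71 and Krtap8-1 for the root sheath and shaft genes with most reads in control tumor 4, and Krtap4-16, Krtap17-1, and Krt76 for members higher in the Sora-treated tumors. Capitals mark the letters TATAAA (the TATA box), TGANTCA (the AP-1 motif), and AACAAAG (a LEF/TCF motif), searched on both strands, and no marked letters overlap in these 6. The stretches are, in this order, chr15:102027966-102028215, plus strand, chr15:101743098-101743347, minus strand, chr16:89487953-89488202, minus strand, chr11:99851606-99851855, minus strand, chr11:99993995-99994244, minus strand, and chr15:101892921-101893170, minus strand.
Krt18: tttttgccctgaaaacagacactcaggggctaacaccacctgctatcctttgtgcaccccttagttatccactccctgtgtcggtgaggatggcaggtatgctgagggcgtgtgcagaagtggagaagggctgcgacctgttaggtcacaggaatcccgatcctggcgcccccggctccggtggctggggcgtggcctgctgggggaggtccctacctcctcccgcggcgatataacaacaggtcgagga
Krt71: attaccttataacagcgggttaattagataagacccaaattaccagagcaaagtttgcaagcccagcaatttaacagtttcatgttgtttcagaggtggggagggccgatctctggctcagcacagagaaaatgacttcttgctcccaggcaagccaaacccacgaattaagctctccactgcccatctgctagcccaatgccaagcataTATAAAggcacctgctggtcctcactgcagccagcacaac
Krtap8-1: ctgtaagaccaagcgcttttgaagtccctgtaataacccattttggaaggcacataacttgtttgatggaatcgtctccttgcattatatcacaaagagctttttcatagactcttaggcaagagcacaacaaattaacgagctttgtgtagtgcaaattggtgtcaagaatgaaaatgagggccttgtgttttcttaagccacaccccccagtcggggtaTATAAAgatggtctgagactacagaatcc
Krtap4-16: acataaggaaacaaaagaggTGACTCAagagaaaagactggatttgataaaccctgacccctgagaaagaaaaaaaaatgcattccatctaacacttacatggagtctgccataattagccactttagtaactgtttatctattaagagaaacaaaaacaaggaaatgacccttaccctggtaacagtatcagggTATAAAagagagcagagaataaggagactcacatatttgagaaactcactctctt
Krtap17-1: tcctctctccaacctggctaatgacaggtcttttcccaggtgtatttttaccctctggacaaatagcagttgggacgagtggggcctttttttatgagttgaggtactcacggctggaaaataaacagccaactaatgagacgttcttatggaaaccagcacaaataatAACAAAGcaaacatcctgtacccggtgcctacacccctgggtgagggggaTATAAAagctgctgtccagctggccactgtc
Krt76: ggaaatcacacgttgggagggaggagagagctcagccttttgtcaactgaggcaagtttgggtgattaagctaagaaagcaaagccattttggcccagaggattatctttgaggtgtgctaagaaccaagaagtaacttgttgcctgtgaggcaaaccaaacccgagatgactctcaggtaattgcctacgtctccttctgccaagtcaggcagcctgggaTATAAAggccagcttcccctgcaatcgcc

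TATAAA was found 40, 29, 55, 31, and 29 bases before the start of Krt71, Krtap8-1, Krtap4-16, Krtap17-1, and Krt76 and was not in the window of Krt18. Over the windows of 300 bases (250 before and 50 after the start), which RefSeq's table held for 74 of the 96 members, TATAAA was present on either strand in 7 of 8 root sheath keratins (87.5%), 5 of 8 hair shaft keratins (62.5%), 33 of 40 genes of keratin-associated proteins (82.5%), 4 of 8 other keratins (50%), 1 of 7 epidermal keratins (14.3%), and 1 of 3 simple-epithelial keratins (33.3%). It was present in 13.6% of all 32851 promoter windows. Members had 1 window per gene, whereas the windows of all genes were not reduced to 1 per gene. At 20 to 60 bases before the start it was in 5 of the 8 root sheath windows, 4 of the 8 hair shaft windows, 28 of the 40 windows of keratin-associated proteins, 3 of the 8 windows of other keratins, 1 of the 7 epidermal and 0 of the 3 simple-epithelial windows, and 2.57% of all windows. TGANTCA was in 7 of 40 windows of keratin-associated proteins (17.5%), 1 of 8 windows of other keratins, 0 windows of the remaining classes, and 7.81% of all windows. AACAAAG was in 5 of 40 windows of keratin-associated proteins (12.5%), 1 of 8 root sheath and 1 of 8 other keratin windows, 0 windows of the remaining classes, and 5.85% of all windows. Matches of letters are a description of the windows and were not tested for binding, and many of these genes are copies of each other in clusters.

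The 67 members of the hair follicle (8 root sheath keratins, 15 hair shaft keratins, and 44 genes of keratin-associated proteins) had 184, 400, and 2197 reads in controls 1, 3, and 4 and 277, 356, and 370 reads in Sora-treated tumors 2, 3, and 4. In control tumor 4, 66 of them had at least 1 read, whereas the other control tumors had reads on 16 and 42 and the Sora-treated tumors on 18 to 24. For 54 of the 67, control tumor 4 held at least 50% of the reads of the 6 tumors, whereas it held 18.2% of the reads of all genes. These 54 genes had 1970 reads in control tumor 4, 171 in control tumor 3, 21 in control tumor 1, and 12, 51, and 10 in Sora-treated tumors 2, 3, and 4. Of the 54, 19 had reads in no tumor other than control tumor 4, and 1 (Krt83) passed the filter of the test. The set was chosen by these reads, so its counts are a description. The 12 other genes with reads, Krtap4-16 among them, had 163 to 229 reads in the control and 265 to 360 in the Sora-treated tumors. Without Krtap4-16 they had 146, 214, and 200 reads in the control and 190, 248, and 221 in the Sora-treated tumors, and the groups overlapped. The last of the 67, Krtap19-2, had no reads, so its FPKM was listed at 0 in every tumor.

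Krt71, Krt25, and Krt27, keratins of the inner root sheath that molds the growing hair, led this pattern. Krt71 had 0, 52, and 391 reads in controls 1, 3, and 4 and then 0, 9, and 0 in tumors 2, 3, and 4 of the Sora-treated mice. Krt25 had 0, 17, and 252 reads in the control and 1, 4, and 0 in the Sora-treated tumors, and Krt27 had 0, 17, and 155 and then 2, 3, and 0. All 3 were thus highest in control tumor 4, next in control tumor 3, and near 0 in the other tumors. Krt75, the keratin of the companion layer outside the inner sheath, did not share the order, with 33, 4, and 46 reads in the control and 17, 26, and 40 in the Sora-treated tumors (log2 fold change 0.06, SE 0.63, edgeR adjusted p = 0.98). In FPKM, the summed root sheath keratins were at 0.338, 1.46, and 12.3 in the control and 0.225, 0.513, and 0.359 in the Sora-treated tumors.

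Among the hair shaft keratins, Krt83, Krt34, Krt33a, Krt86, Krt31, and Krt81 followed control tumor 4. Krt83, a type II keratin of the hair cortex, had 10, 10, and 64 reads in the control and 2, 14, and 2 in the Sora-treated tumors, a log2 fold change of -2.11 (SE 0.87, edgeR adjusted p = 0.23). Krt34 had 0, 7, and 56 reads and Krt81 0, 4, and 48 reads in the control tumors, and both had 0 in each Sora-treated tumor. Krt33b and Krt39 did not follow it. Krt33b, a type I keratin of the cortex, had 27, 78, and 95 reads in the control and 73, 120, and 74 in the Sora-treated tumors (log2 fold change 0.48, SE 0.39, edgeR adjusted p = 0.60), and its close copy Krt33a had 1, 5, and 56 and then 0, 1, and 0. Krt39, a type I keratin of the hair cuticle, had 13, 17, and 10 reads in the control and 20, 11, and 26 in the Sora-treated tumors.

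The genes of keratin-associated proteins had the most members at 0. In control tumor 4, 43 of the 44 had at least 1 read, whereas the other control tumors had reads on 6 and 22 of them and the Sora-treated tumors on 6, 10, and 9. Krtap7-1 and Krtap8-1, proteins rich in glycine and tyrosine, had 0, 3, and 114 reads and 0, 5, and 89 reads in the control tumors, and both had 0 in all 3 Sora-treated tumors. Krtap15 had 0, 2, and 62 reads in the control and 0 in each Sora-treated tumor, and Krtap11-1 had 40 reads in control tumor 4 and 0 in the other 5. With 3 reads as the most that a count of 0 allows, in the library with the lowest total, Krtap7-1 was at least 32.6-fold higher in control tumor 4 than in the 4 tumors at 0, Krtap8-1 at least 25.5-fold, and Krtap11-1 at least 11.4-fold over its 5 tumors at 0 (counting error only). Krtap5-5, of the ultra-high sulfur proteins, did not follow control tumor 4, with 57, 82, and 32 reads in the control and 45, 81, and 43 in the Sora-treated tumors. The 54 genes with most of their reads in control tumor 4 lay on more than 1 chromosome, with 23 on chromosome 11, 19 on chromosome 16, 8 on chromosome 15, and 1 each on chromosomes 1, 7, and 10, and 1 symbol (Krt85) was not matched.

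**Figure D4:**
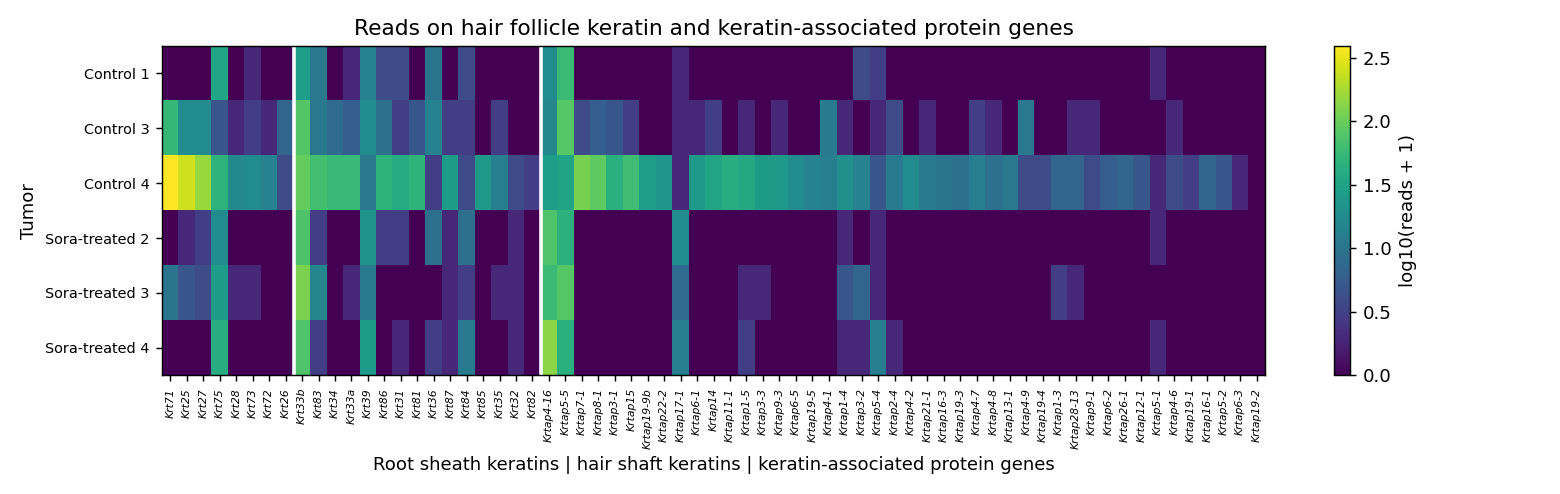
Log10 of reads plus 1 (color) on the 67 root sheath keratin, hair shaft keratin, and keratin-associated protein genes (x axis, in class order by mean level) in each tumor (y axis), with white lines between the classes. Control tumor 4 holds reads on 66 of the 67 genes, and control tumor 3 comes next with 42.

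Hair follicle genes that are not keratins followed control tumor 4 only in part. Tchh (trichohyalin), which binds keratin filaments in the inner root sheath, was at 0.776, 0.798, and 3.01 FPKM in the control and 0.497, 0.337, and 0.273 FPKM in the Sora-treated tumors (log2 fold change -2.05, SE 0.49, edgeR adjusted p = 0.049). Of the 14 follicle genes listed, 6 were highest in control tumor 4, 5 were tested, and Tchh alone was called by edgeR. DESeq2 also called Tchh (adjusted p = 0.043) and limma voom called 0 of the follicle genes (Tchh at adjusted p = 0.13, lower at an unadjusted p under 0.05). Their summed FPKM was 5.08 to 10.1 in the control and 4.51 to 7.76 in the Sora-treated tumors, and Dsg4 and Foxn1, a cadherin and a transcription factor of the follicle, stayed under 0.1 FPKM. The 6 melanocyte genes summed to 0.38 to 1.12 FPKM in each tumor, with Tyr (tyrosinase) at no more than 0.005 FPKM. Without control tumor 4, the log2 ratio of the mean summed FPKM (Sora-treated against control) went from -1.32 to 0.60 for keratin-associated proteins, from -0.78 to 0.26 for hair shaft keratins, and from -3.68 to -1.30 for root sheath keratins. The value of 0.60 rested on Krtap4-16, and with this gene left out as well the ratio of the other 43 keratin-associated proteins was -0.33 (summed FPKM of 1.79 and 4.03 in controls 1 and 3 against 2.05, 2.82, and 2.07 in the Sora-treated tumors, overlapping). The value of -1.30 for root sheath keratins rested on control tumor 3, since control tumor 1 lay within the range of the Sora-treated tumors. By test, 0 of the 6 hair genes tested were called lower by edgeR (1 at an unadjusted p under 0.05) and 0 of the 9 hair genes with an adjusted p by DESeq2. Of 65 hair genes with an unadjusted DESeq2 p, 14 were lower at a p under 0.05 (5.65% of all genes), but 11 of these 14 had too few reads to be given an adjusted p and could not be called. With no filter on low counts, edgeR called 15 of 66 hair genes lower, against 2.28% of all genes. The reads of these 15 lie mostly in control tumor 4, so the calls rest largely on 1 library. Limma on log2(FPKM + 0.1) with no filter gave 0 of 67 hair genes lower at an unadjusted p under 0.05.

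The 2 members that were called had another pattern. Krtap4-16, whose product is an ultra-high sulfur protein of the hair shaft, was at 0.572, 0.473, and 0.784 FPKM in the control tumors (17, 15, and 27 reads) and 2.54, 1.80, and 4.28 FPKM in the Sora-treated tumors (75, 57, and 139 reads). Every Sora-treated tumor lay above every control tumor. The mean was 0.610 ± 0.159 FPKM in control and 2.87 ± 1.27 FPKM in Sora-treated tumors (SD, n = 3), a log2 fold change of 2.25 (SE 0.40, edgeR adjusted p = 0.019). Its neighbors on chromosome 11, Krtap4-9 and Gm11568, had reads in control tumors 3 and 4 alone (10 and 3 reads, and 1 and 4 reads). Krtap4-16 belongs to a family of close copies, so its reads are uncertain where the copies match. Krtap4-16 was called in 2 of the 6 fits that left out 1 tumor (without Sora-treated tumor 2 or 3), and its adjusted p was 0.050 to 0.11 in the other 4, with log2 fold changes of 1.82 to 2.50 in all 6.

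Krtap17-1, chosen after its values were seen, had 1 read in each control tumor and 17, 7, and 12 reads in the Sora-treated tumors. It did not reach the filter of the test, and its neighbors Krtap16-1 and Krt33a had 0 and 1 reads at most in the Sora-treated tumors. Krt76, a type II keratin known from the palate and other differentiating epithelia, was at 0.456, 0.337, and 0.394 FPKM in the control tumors (33, 26, and 33 reads) and 1.22, 0.989, and 1.45 FPKM in the Sora-treated tumors (88, 76, and 114 reads). The groups did not overlap, with means of 0.396 ± 0.060 and 1.22 ± 0.228 FPKM (SD, n = 3) and a log2 fold change of 1.64 (SE 0.30, edgeR adjusted p = 0.020). Its neighbors on chromosome 15, Krt77 and Krt4, had overlapping groups, and so did Krt1 and Krt79 close by. Krt76 was called in 3 of the 6 fits that left out 1 tumor, and its adjusted p was 0.061, 0.071, and 0.12 without control tumor 4, Sora-treated tumor 2, and Sora-treated tumor 4, with log2 fold changes of 1.48 to 1.78 in all 6.

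**Figure D5:**
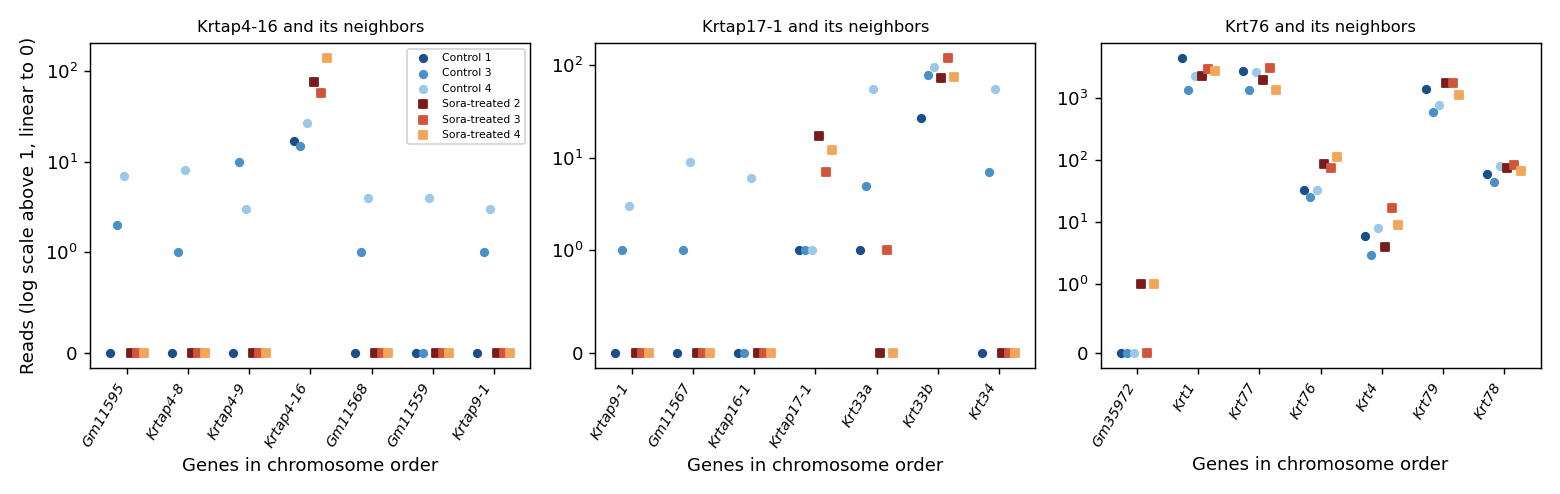
Reads (y axis, log scale above 1 and linear from 0 to 1) on Krtap4-16, Krtap17-1, and Krt76 and on 3 genes to either side in chromosome order (x axis), with circles for control and squares for Sora-treated tumors. The 3 Sora-treated tumors lie above the 3 control tumors for each of the 3 central genes, at 57 to 139 reads for Krtap4-16 against 15 to 27.

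The other keratin genes included epithelial keratins outside the skin. Krt20, a type I keratin of gut and urinary tract lining, was at 71.2, 56.7, and 61.4 FPKM in the control and 85.1, 61.1, and 96.1 FPKM in the Sora-treated tumors (log2 fold change 0.37, SE 0.15, edgeR adjusted p = 0.22). It stood at 0.087 to 0.128 of the Krt18 level in every tumor, and Sora-treated tumor 3 lay within the control range. Krt23, a type I keratin, was at 6.42, 4.18, and 4.44 FPKM in the control and 11.3, 5.83, and 8.23 FPKM in the Sora-treated tumors (log2 fold change 0.77, SE 0.23, edgeR adjusted p = 0.10, DESeq2 adjusted p = 0.011). Without Sora-treated tumor 3, edgeR called 4 of 28 members higher, against 3.52% of all genes tested in that fit. These were Krtap4-16, Krt76, and both of these genes, Krt20 at a log2 fold change of 0.55 (adjusted p = 0.013) and Krt23 at 0.98 (adjusted p = 0.018). Krt80, a type II keratin of many epithelia, was at 8.49, 4.40, and 4.91 FPKM in the control and 7.999, 6.66, and 5.50 FPKM in the Sora-treated tumors, with overlapping groups.

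Proteins that anchor keratin filaments occur in simple and stratified epithelia, and 16 genes of filament anchors and partners were tested. Of these, edgeR and limma voom each called 3 higher and 0 lower (1.94% and 1.79% of all genes higher). DESeq2 called 6 higher and 0 lower (4.0% of all genes higher). By edgeR 11 log2 fold changes were above 0 and 5 below (median 0.15). At an unadjusted p under 0.05 edgeR gave 7 higher and 1 lower (8.53% and 8.69% of all genes). Itga6 and Itgb4, the integrin pair of hemidesmosomes, rose by a log2 fold change of 0.66 (adjusted p = 0.014) and 0.39 (adjusted p = 0.030), and Ppl (periplakin), a linker of filaments to desmosomes, by 0.27 (adjusted p = 0.048). Itga6 was at 67.3, 68.4, and 73.3 FPKM in the control and 111.7, 93.7, and 121 FPKM in the Sora-treated tumors, so the groups did not overlap. Vim (vimentin), the filament protein of mesenchymal cells, was at 535 to 639 FPKM with overlapping groups. Of 9 tested genes that accompany Krt6 and Krt16 in activated epidermis, 6 had edgeR log2 fold changes above 0 and 3 below (median 0.51). Among them edgeR called 3 higher and 0 lower (1.94% and 1.34% of all genes). These were S100a9 (log2 fold change 1.21, edgeR adjusted p = 0.042), Il24 (1.61, 0.021), and Hbegf (1.04, 0.013), which are also made by myeloid or other cells. DESeq2 and limma voom called Il24 and Hbegf but not S100a9 (adjusted p = 0.053 and 0.073).

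Markers of other tissues that skin can bring along were read in the same way. For sebocytes, the lipid cells of the hair follicle's gland, edgeR called 2 of 5 tested genes higher and 0 lower (1.94% and 1.34% of all genes). Of the 5 log2 fold changes, 4 were above 0 and 1 below (median 1.07). The called genes were Awat1, an enzyme of wax synthesis (log2 fold change 1.86, edgeR adjusted p = 0.042), and Elovl3, which elongates fatty acids (1.87, 0.011). Elovl3 was at 0.988, 0.577, and 0.741 FPKM in the control and 3.10, 3.23, and 2.02 FPKM in the Sora-treated tumors, so its groups did not overlap. For skeletal muscle 0 of 10, for adipocytes 0 of 6, for fibroblasts 0 of 7, and for melanocytes 0 of 2 tested genes were called by edgeR, with median log2 fold changes of 0.19, 0.65, -0.22, and 0.13. At an unadjusted p under 0.05 edgeR gave 1 muscle and 3 adipocyte genes higher, 3 fibroblast genes lower, and 0 melanocyte genes. Of all genes 8.53% were higher and 8.69% lower at that threshold. Among genes with an adjusted p, DESeq2 called 1 adipocyte gene higher and 3 fibroblast genes lower (4.0% and 3.71% of all genes). Limma voom called 0 in each of the 4 lists. Summed FPKM in control and Sora-treated tumors ranged over 116 to 156 and 129 to 185 for muscle and 42.4 to 58.4 and 54.0 to 85.4 for adipocytes. For fibroblasts the sums were 1808 to 1907 and 1424 to 1714, and for sebocytes 13.2 to 13.9 and 14.9 to 22.3. Of the 5 duct genes tested, 1 (Sox9) was called higher by edgeR (1.94% of all genes), with a median of 0.18. The part of these tissues in the keratin values was not tested.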

How the data were processed

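Reads per gene were counted in 3 control and 3 Sora-treated tumors. The authors deposited a table of counts (whole reads per gene, not normalized) for 5 tumors and a table of FPKM (those counts scaled by gene length and by total reads) for all 6, both for 26167 genes and without coordinates. The methods of the study name Bowtie2 and GRCm38, whereas the submitters' processing notes name fastp, HISAT2, HTSeq, and GRCm39, so the build is uncertain; strand and the annotation are not given in the sources used here. Counts of Sora-treated tumor 4 were recovered from its deposited FPKM, with gene lengths taken from the tumors held by both tables. All recovered values (100%) were within 0.001 of whole numbers, 342 genes (512 reads) had no length and were left at 0, and the same step returned the counts of each of the other 5 tumors exactly.

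The count test was the quasi-likelihood test of edgeR 4.0.16 (TMM scaling, glmQLFit with robust=FALSE, glmQLFTest) under R 4.3.3. A gene needed 10 or more reads in 3 or more tumors, and calls an adjusted p under 0.05. TMM factors were 0.971 to 1.03. Tests were run on simulated data first. Alternatives were DESeq2 1.42.0, voom and log2 FPKM in limma 3.58.1, other scalings and filters, a replicate block, and leaving out each tumor.

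The members, lists, and tests were chosen with earlier results of these data known. Named genes were the 4 simple-epithelial keratins, the 8 epidermal, 4 root sheath, 8 hair shaft, and 3 other keratins and 8 keratin-associated proteins with the highest mean FPKM, called members and their neighbors, and the 3 highest or called genes of each list of other genes. Krt2, Krt10, Krt15, Krt78, Krt79, Krtap11-1, Krtap17-1, and some list genes were named in addition after their values were seen. RefSeq's GRCm38.p6 table matched 95 of 96 member symbols and was used for chromosomes, gene order, and promoters. Intervals and floors cover counting error only.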

Additional observations from a re-analysis of the deposited data

How the results depend on the processing

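The counts of called members depended on the setting. With all 6 tumors, 2 members were called higher under limma voom, under edgeR scaled by DESeq2 size factors or by total counts, and under a filter of 10 counts in every tumor, and 3 under DESeq2. Without a filter on low counts, edgeR called 6 higher and 15 lower, and the 15 were hair genes whose reads lie mostly in control tumor 4. Limma called 1 higher on log2(FPKM + 1) and 0 on log2(FPKM + 0.1), with or without a filter (4 and 3 at an unadjusted p under 0.05). The filter on FPKM (at least 1 in at least 3 tumors) left 22 members, and Krt76 was not among them. Leaving out 1 tumor gave 0 to 5 higher and 0 lower, with 0 without control tumor 4 (3 at an unadjusted p) and without Sora-treated tumor 4 (5). The block for the replicate number gave 6 higher (0.484% of all genes), which were Krt1, Krt5, Krt14, Krt15, Krt17, and Krt79. It lost Krtap4-16 (edgeR adjusted p = 0.082) and Krt76 (0.16), and it shares only the numbers 3 and 4 between groups. Deviations of same-numbered tumors did not go together over genes (r = -0.03 and -0.07). With 2 shared numbers this cannot tell whether the tumors were paired, and the labels do not say what the numbers mean.

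Over all genes, edgeR called 543, DESeq2 1194, edgeR without a filter 1147, the block 125, limma 198 on log2(FPKM + 1), 38 on log2(FPKM + 0.1) with a filter, and 0 without one, and leaving out 1 tumor gave 5 (without Sora-treated tumor 4) to 1145. The log2 difference of the Krt18 to Krt8 ratio was -0.028 to 0.079 with 1 tumor left out. The log2 ratios of mean summed FPKM were then 0.17 to 1.55 for epidermal keratins, -4.23 to -1.30 for root sheath keratins, -1.21 to 0.26 for hair shaft keratins, and -1.81 to 0.60 for keratin-associated proteins. In a comparison chosen after the data were seen, leaving Krtap4-16 out of the last sum gave -2.41 with all tumors and -0.33 without control tumor 4.

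Values near 0 changed sign: Krt1 was -0.0067 with total counts and -0.29 to 0.65 with 1 tumor left out, Krt77 was 0.15 under the block and -0.37 to 0.23, Krt75 was -0.44 to 0.55, and Krtap5-5 was 0.097 under voom, 0.0038 with 10 counts in every tumor, 0.23 under the block, 0.014 on log2(FPKM + 1), 0.046 on log2(FPKM + 0.1), and -0.33 to 0.38. The cause of these changes was not tested. Genes with few reads, such as Krtap17-1, are limited by counting error.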
